A study of Mus musculus with 4 samples.

Results

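Translation initiation and elongation factors are the proteins that bring ribosomes to the start codon and move them along the coding sequence. Their genes were taken as every symbol beginning with Eif or Eef, apart from the Eif2ak kinases and the sex-linked pair Eif2s3x and Eif2s3y, which gave 59 of the 24421 genes in the tables. The values come from poly(A) RNA of cells taken from the mouse cerebral cortex at embryonic day 17 and labelled neural stem cells. These cells had spent 1 day in medium with B27 supplement, basic FGF and EGF, the same in all libraries. Cells labelled Prrc2b f/f; Nestin-Cre (called knockout, 2 libraries) carried floxed Prrc2b together with a Cre recombinase under Nestin regulatory DNA, which is active in neural progenitors, so cells of other origin in the culture would keep the gene. Cells labelled Prrc2b f/f (called control, 2 libraries) carried the same floxed alleles without Cre, and both groups are on the C57BL/6J background. Prrc2b encodes a proline-rich coiled-coil protein. The design text of the series speaks of brain tissue, whereas the sample labels name neural stem cells, and the labels were followed. The labels do not say whether libraries came from separate embryos or cultures, or from pools, so the spread behind each p-value is that of these 4 libraries and may be technical.

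Initiation starts when eIF2 carries the initiator tRNA to the small ribosomal subunit, where eIF1, eIF1A, eIF3 and eIF5 assemble. The eIF4F complex, made of the cap-binding protein eIF4E, the scaffold eIF4G and the helicase eIF4A, then brings in the mRNA. eIF2B recharges eIF2 with GTP, and phosphorylated eIF2 blocks eIF2B, which lowers general translation in the integrated stress response. After subunit joining by eIF5B, eEF1A delivers aminoacyl-tRNAs and eEF2 moves the ribosome along. Neural progenitors of the cortex depend on high rates of protein synthesis, and messages for elongation factors and several eIF3 subunits are known to begin with a run of pyrimidines that puts their translation under control of the kinase complex mTORC1.

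Gene totals were 28205590 and 25936794 counts in knockout libraries, against 26491919 and 28263272 counts in control libraries. Prrc2b itself was read at 576 and 574 counts-per-million (CPM) in knockout libraries, against 587 and 593 CPM in control libraries, with a log2 fold change of -0.04 ± 0.02 (SE, adjusted p = 0.134). This value turned to 0.02 after a correction for GC content and length. Reads from exons outside a deletion would still be counted, so the total does not check the genotype label. All 10 neural stem and radial glial markers were present (3 rose and 4 fell), with summed levels of 6434 to 6452 CPM in knockout libraries and 7377 to 7421 CPM in control libraries. The 4 Y-linked markers were at 0 in both knockout libraries and summed to 64.5 and 67.3 CPM in control libraries, so genotype, Cre and embryo sex cannot be told apart in any value below. Markers of other cells moved too. Choroid plexus markers, 6 of 7 of which rose, summed to 1337 to 1353 CPM in knockout libraries against 206 to 214 CPM in control libraries, and of 8 fibroblast and mural markers 7 fell and 1 rose (56.1 to 59.6 against 177 to 180 CPM). Of 6 astrocyte markers 5 fell (1846 to 1850 against 2776 to 2797 CPM), 5 of 8 cortical neuron markers rose (2766 to 2785 against 2403 to 2409 CPM), and 5 of 7 oligodendrocyte lineage markers rose and 1 fell (1569 to 1609 against 1410 to 1452 CPM). Of 7 tested microglial markers 5 fell (5.94 to 7.02 against 10.2 to 11.4 CPM), of 6 tested endothelial markers 3 fell and 1 rose (107 to 110.2 against 189 CPM in each control library), and 4 of 6 erythroid markers, all globins, were at 0 throughout. Their part in the values below was not tested, and in bulk RNA fewer cells of a type and less RNA per cell cannot be told apart.

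Stretches of DNA around the start sites are shown first, because a pyrimidine run that begins at the start is the known feature of some translation factor messages named above. A run elsewhere in a stretch does not show that feature. Of the 59 genes 45 had at least 1 window in the RefSeq promoter table (GRCm38.p6), running from 250 bases before to 50 bases after an annotated start. The stretches run from 10 bases before the start to 20 bases into the transcript, and capitals mark the longest run of C and T in each. The first 4 belong to genes that were higher in the knockout libraries and the last 3 to genes that were lower.

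Eef1a1: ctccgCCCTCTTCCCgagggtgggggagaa

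Eif3l: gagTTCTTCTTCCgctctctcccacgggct

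Eif3k: aaccggcgctggtgctgaaagcgCCTTTCC

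Eif4b: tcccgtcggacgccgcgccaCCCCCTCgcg

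Eif4g1: gcgcagctccgCCCTCTgcgccggtcacgt

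Eif3b: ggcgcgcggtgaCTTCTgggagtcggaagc

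Eif2b2: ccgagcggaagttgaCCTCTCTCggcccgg

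They lie on the minus strand at chr9:78481705-78481734 (Eef1a1) and chr7:28981869-28981898 (Eif3k). On the plus strand they lie at chr15:79075213-79075242 (Eif3l), chr15:102073763-102073792 (Eif4b), chr16:20672717-20672746 (Eif4g1), chr5:140419295-140419324 (Eif3b) and chr12:85219471-85219500 (Eif2b2). The marked run was 10 bases in Eef1a1 and Eif3l and 7 in Eif3k and Eif4b, against 6, 5 and 8 bases in Eif4g1, Eif3b and Eif2b2. Only in Eef1a1 and Eif3l did it span the annotated start, and in Eif3k, Eif4b, Eif4g1, Eif3b and Eif2b2 it began inside the transcript. Runs of at least 7 pyrimidines, read in the direction of the transcript, were counted anywhere within 20 bases on either side of the start. Such a count does not measure runs that begin at the first base. A run was present in 15 of 59 member windows (25.4%), against 24.3% of all 32851 promoter windows. By gene it was present in 13 of 45 members (28.9%), against 27.5% of all genes in the table, so the members as a whole stood at the background. By direction, such a run was found in 7 of 14 genes higher in knockout libraries and in 2 of 10 genes lower there. It was found in 4 of 20 genes that did not pass, each gene counted once over all its windows. All printed higher genes are among those 7, so their run lengths do not stand for the higher genes. Eif1 and Eef1b2, also higher, had longest runs of 2 and 4 bases, and the lower gene Eif4e had one of 10. The printed genes and the motifs searched were chosen after values and sequences were seen, annotated starts can differ from those used in these cells, and these shares are a description.

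Of 2 short motifs searched, both were present in a larger share of member windows than of all windows. The E-box CACGTG, the core sequence bound by MYC family factors, was found in 14 of 59 member windows (23.7%), against 7.15% of all windows. The sequence CGGAAG, the core of ETS family sites, was found in 31 of 59 (52.5%), against 16.9% of all windows. Counted by gene, 12 of 45 had the E-box (26.7%, against 8.09% of all genes in the table) and 27 of 45 the ETS core (60.0%, against 18.8%). Both strands were searched, some windows of 1 gene overlap, and by their letters the motifs cannot overlap each other. By gene, E-boxes stood near 3 of 14 higher members, 5 of 10 lower members and 4 of 20 that did not pass. The 250 bases before the start of Eef2, the elongation translocase gene (plus strand, chr10:81176381-81176630), and of Eif4g1, the cap-complex scaffold gene (plus strand, chr16:20672477-20672726), each hold 1 E-box, marked in capitals.

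Eef2: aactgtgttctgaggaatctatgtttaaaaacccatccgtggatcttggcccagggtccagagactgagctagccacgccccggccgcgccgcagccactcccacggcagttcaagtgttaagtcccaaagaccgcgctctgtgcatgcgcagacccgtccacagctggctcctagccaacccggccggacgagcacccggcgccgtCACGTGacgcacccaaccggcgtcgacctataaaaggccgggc

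Eif4g1: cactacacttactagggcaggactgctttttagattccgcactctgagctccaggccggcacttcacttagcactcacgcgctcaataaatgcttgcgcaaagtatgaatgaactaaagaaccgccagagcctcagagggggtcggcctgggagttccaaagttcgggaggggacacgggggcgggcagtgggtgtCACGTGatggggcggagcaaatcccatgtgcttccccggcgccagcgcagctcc

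Translation factor messages differed between the groups by small amounts, and they are given here by complex. Messages of the eEF1A gene Eef1a1, its exchange factor subunit gene Eef1b2 and Eif1 were called higher in knockout libraries. So were those of the eIF4 genes Eif4b and Eif4ebp1. Of 12 tested eIF3 subunits 7 were called higher and 3 lower (Eif3a, Eif3b and Eif3d). With DESeq2, a second method, 4 eIF3 messages were called higher and 2 lower. Messages of the scaffold eIF4G1, the helicase eIF4A1, the cap-binding protein eIF4E, eIF5A and the eIF1A gene Eif1a were called lower. Of these, the calls of Eif4a1, Eif4e and Eif5a were lost under upper quartile scaling. Among the 56 genes with enough counts to test, 18 were higher and 11 lower at an adjusted p under 0.05 in edgeR's quasi-likelihood test, which is 51.8%. Across all 15012 tested genes 33.1% passed, 15.1% as higher and 18.1% as lower. Translation factors are abundant, and 51 of the 56 reached a mean log2 CPM of 5. Of the 7247 tested genes at or above that level, 42.4% passed, 18.5% as higher and 23.9% as lower. The 51 members at that level gave 18 higher and 10 lower.

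The differences were narrow in size. Fold changes of the 56 genes ran from 0.799 to 1.22, and their median absolute log2 fold change was 0.08, against 0.12 for all tested genes and 0.08 for the 7247 abundant genes. The median log2 fold change was 0.005 in both the members and all tested genes. Tested against a 1.2-fold change in place of no change, 0 of 56 members passed in edgeR (2 had an unadjusted p under 0.05), while 6.92% of all tested genes did. For 41 of the 56 members the knockout and control libraries did not overlap, 26 with both knockout libraries above and 15 with both below. Among all tested genes 65.1% did not overlap, 34.2% above and 31.0% below. Of the 7247 abundant genes 5241 did not overlap (2543 above, 2698 below), against 38 of the 51 members at that level (24 above, 14 below). DESeq2, which calls fewer genes throughout, passed 10 as higher and 6 as lower, against 18.0% of all genes. The balance moved with other settings, to 20 higher and 5 lower under upper quartile scaling and to 16 higher and 14 lower after correction for GC content and transcript length.

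**Figure D1:**
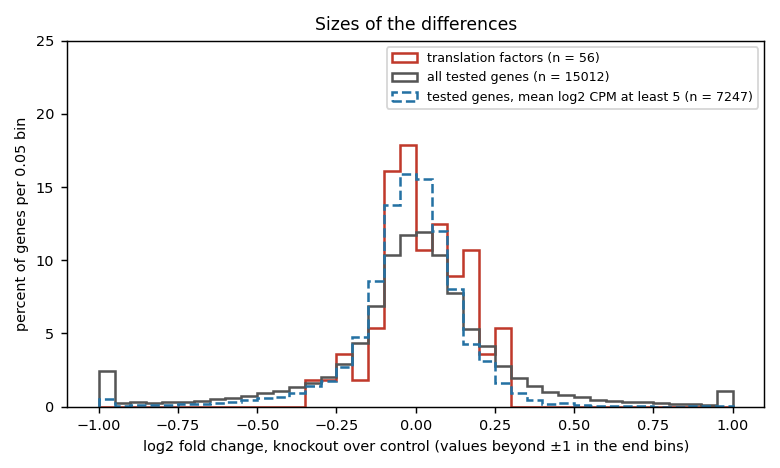
Distribution of log2 fold changes, knockout over control (horizontal axis), as the percent of genes in each bin (vertical axis), for the 56 tested translation factor genes, all 15012 tested genes and the 7247 genes at a mean log2 CPM of 5 or more. The translation factors lie between -0.32 and 0.29. Both backgrounds have longer tails, but they hold far more genes, so the tails cannot be compared. The median absolute log2 fold change was 0.08 in the translation factors, 0.12 in all tested genes and 0.08 in the abundant genes.

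**Figure D2:**
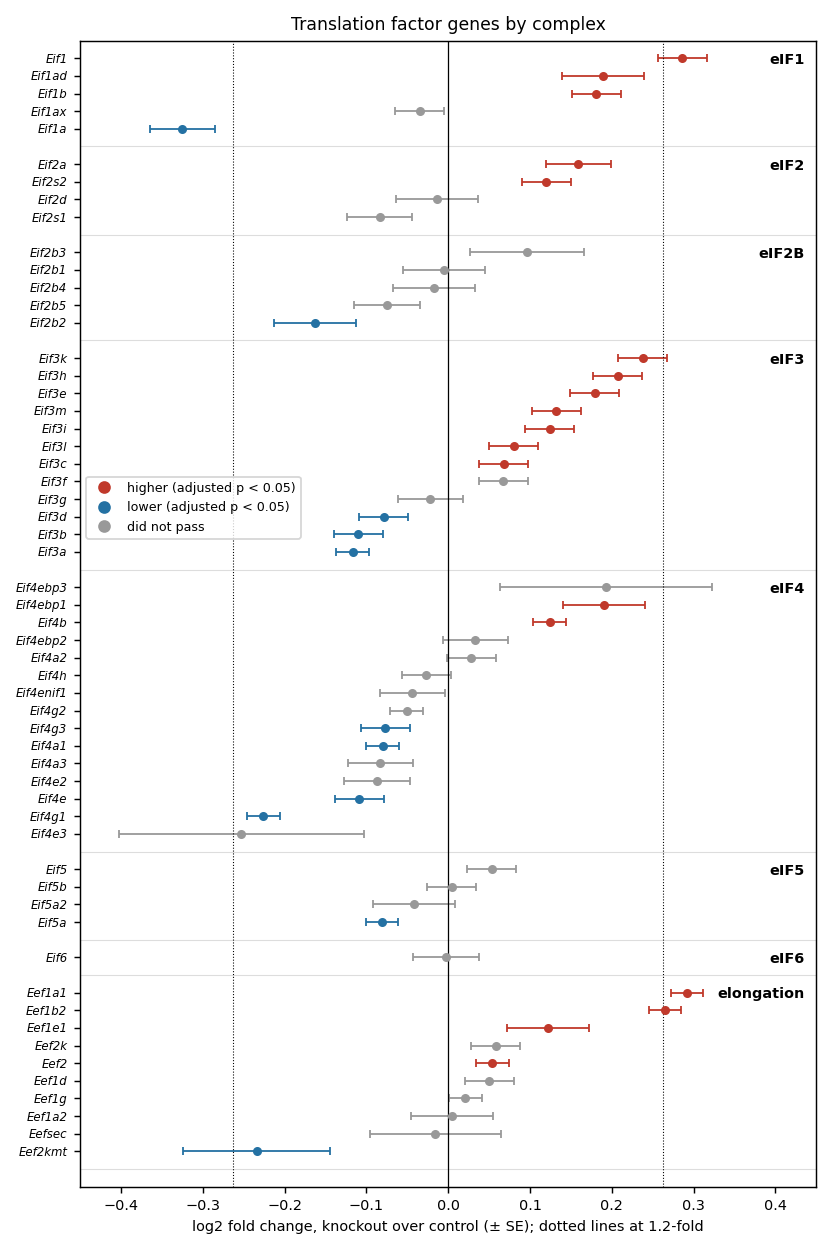
Log2 fold change, knockout over control, of each tested gene, with its SE, grouped by complex. Red points passed as higher (18 genes), blue points as lower (11 genes) and grey points did not pass (27 genes). Most eIF3 and elongation genes lie to the right of 0, and most eIF4 genes to the left.

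Transcript length moved with the direction of these differences. The 18 higher members had a median transcript length of 1940 bp and the 11 lower members one of 2865 bp, and the same order held for all genes, at 2516 bp for those higher and 3798 bp for those lower in knockout libraries. Across genes, Spearman's rho between log2 fold change and length was -0.38 over the 56 members and -0.22 over 14481 tested genes with a length. Genes are not independent replicates, and all share the same 4 libraries. The correction for GC content and length, added after the data were seen, removes such a trend, and its values are given below where it ends a call or moves it by more than 1.5 times.

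Elongation factors were the most abundant members and held the highest fold change. Eef1a1, which encodes the ubiquitous form of eEF1A and lies on chromosome 9 from 78478449 to 78489151 (minus strand), had 9779 and 9704 CPM in knockout libraries, against 8025 and 7805 CPM in control libraries. Both knockout libraries were above both controls (log2 fold change 0.29 ± 0.02, SE, adjusted p = 3.9e-18). This gene alone took up most of the difference in the summed level of the 59 genes. That sum was 24024 and 23839 CPM in knockout libraries, against 21997 and 21694 CPM in control libraries, or 9.55% higher, and without Eef1a1 it was 1.87% higher (14245 and 14135 against 13972 and 13888 CPM). Eef1a1 has many processed pseudogenes, so reads that fit several places may have been lost from its count.

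Eef1b2, a subunit of the factor that reloads eEF1A with GTP, had 452 and 449 CPM in knockout libraries, against 377 and 368 CPM in control libraries. It rose by a similar step (0.26 ± 0.02, adjusted p = 2.2e-11). The other subunits of that exchange complex did not pass: Eef1d had 146.1 and 146.4 CPM in knockout libraries against 139.9 and 141.2 CPM in control libraries, and Eef1g had 586 and 592 CPM against 579 and 575 CPM. Eef2, the translocase, rose by 0.05 ± 0.02 (3132 and 3118 CPM in knockout libraries, 3006 and 2983 CPM in control libraries, adjusted p = 0.0127). Eef1e1, whose product sits in the multi-tRNA synthetase complex, rose by 0.12 ± 0.05 (58.1 and 56.1 CPM in knockout libraries, 53.9 and 50.6 CPM in control libraries, adjusted p = 0.0385).

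Eef2kmt, the gene of the enzyme that methylates eEF2 on a lysine, was the elongation member that fell. It had 12.5 and 13.5 CPM in knockout libraries, against 14.6 and 15.7 CPM in control libraries (-0.23 ± 0.09, adjusted p = 0.0306). The remaining 3 did not pass. Eef2k, the kinase that inhibits eEF2, stood at 122.4 and 118.6 CPM in knockout libraries and 112.4 and 117.9 CPM in control libraries. Eef1a2, the eEF1A form of neurons and muscle, stood at 61.7 and 62.9 CPM in knockout libraries and 58.9 and 64.4 CPM in control libraries, and Eefsec, the selenocysteine-specific factor, at 15.4 and 16.7 against 17.1 and 15.1 CPM. Elongation genes counted 4 higher and 1 lower of 10 (50.0%), against 18.5% higher and 23.9% lower (42.4% called) among the abundant genes, and 2 higher and 0 lower with DESeq2. The calls of Eef2, Eef1e1 and Eef2kmt were lost with DESeq2 and when 1 library was left out: for Eef2 without knockout replicate 1 (0.05) or 2 (0.06), for Eef1e1 without control replicate 2 (0.08) or knockout replicate 1 (0.10), and for Eef2kmt without either of the same libraries (-0.18 each) and under upper quartile scaling (-0.21). Eef1e1 was also lost after correction for GC content and length, where it was 0.11, and Eef2k passed there at 0.11.

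**Figure D3:**
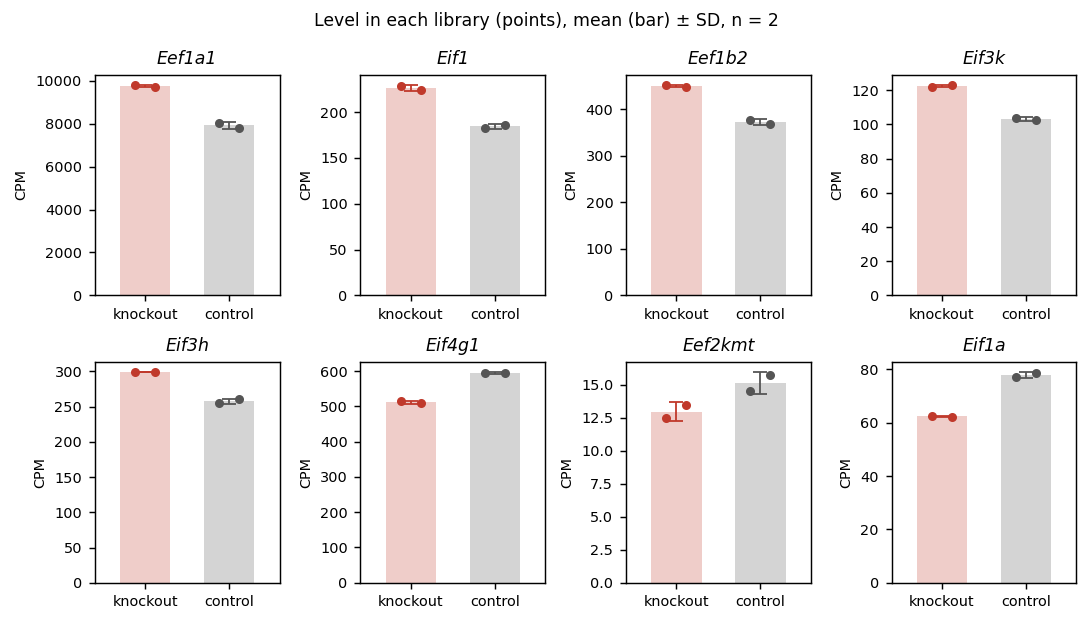
CPM in each library (points) with the mean (bar) and SD, n = 2 per group, knockout left and control right, for the 8 members past the threshold with an absolute log2 fold change of at least 0.2. In each panel the 2 knockout libraries lie on the same side of both control libraries, above for Eef1a1, Eif1, Eef1b2, Eif3k and Eif3h and below for Eif4g1, Eef2kmt and Eif1a. The genes were chosen by their difference in these same libraries, so this separation is not a separate result. Among all tested genes 65.1% did not overlap.

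The eIF1 group held both the strongest initiation factor rise and the strongest fall. Eif1, whose product keeps the ribosome scanning until it meets a good start codon, had 228.5 and 223.7 CPM in knockout libraries, against 183 and 186 CPM in control libraries. Both knockout libraries were higher (0.29 ± 0.03, adjusted p = 2.0e-10). Its close paralog Eif1b had 140.0 and 140.3 CPM in knockout libraries, against 124.3 and 121.9 CPM in control libraries (0.18 ± 0.03, adjusted p = 2.7e-05), a value of 0.09 after correction for GC content and length, which still passed. Eif1ad, a gene with an eIF1A-like domain, also rose (46.2 and 47.4 against 39.9 and 41.6 CPM, 0.19 ± 0.05, adjusted p = 0.0027), although not with DESeq2 (0.19).

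Eif1a, an autosomal gene for the scanning factor eIF1A, had 62.6 and 62.2 CPM in knockout libraries, against 77.0 and 78.5 CPM in control libraries. Both knockout libraries were lower (-0.32 ± 0.04, adjusted p = 3.0e-08). Eif1ax, the X-linked gene for nearly the same protein and the only member on a sex chromosome, overlapped between the groups, with 123.6 and 122.3 CPM in knockout libraries and 121.5 and 129.0 CPM in control libraries (-0.03 ± 0.03, adjusted p = 0.481). Without control replicate 2 its value turned to 0.01. Of the reads of this pair scaled by transcript length, Eif1a made up 47.8% ± 0.0825 in knockout libraries and 52.9% ± 0.706 in control libraries (SD, n = 2), so the share was 5.04 percentage points lower. Reads that match both paralogs could have been split or dropped.

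The eIF2 genes moved little. Eif2s2, the beta subunit, had 197 and 191 CPM in knockout libraries, against 184 and 171 CPM in control libraries (0.12 ± 0.03, adjusted p = 0.0035), and Eif2s1, the alpha subunit that the stress kinases phosphorylate, had 99.6 and 101.1 CPM against 107 and 104 CPM (-0.08 ± 0.04, adjusted p = 0.0659). Eif2a, which despite its name encodes a separate tRNA-binding factor, rose (88.5 and 90.1 CPM in knockout libraries, 79.5 and 79.6 CPM in control libraries, 0.16 ± 0.04, adjusted p = 0.0010). Eif2d, a factor for tRNA delivery outside the main route, was at 33.9 and 34.2 CPM in knockout libraries and 34.2 and 34.3 CPM in control libraries. The count was 2 higher and 0 lower of 4 in edgeR (50.0% called), against 33.1% of all tested genes and 42.4% of the abundant ones. The Eif2s2 call was lost with DESeq2 (0.12) and without control replicate 2 (0.07), while the GC content and length correction brought in Eif2s1 as lower (-0.10). The gamma subunit genes lie outside the member rule, and as values beside these, Eif2s3x had 219 and 223 CPM in knockout libraries against 208 and 200.3 CPM in control libraries (0.11 ± 0.03, adjusted p = 0.0037; 0.08 and not passing without control replicate 2), while its Y-linked copy Eif2s3y was at 0 in knockout libraries and at 22.2 and 20.6 CPM in control libraries.

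The 5 eIF2B genes encode the exchange factor that reactivates eIF2. Of them 1 was called, against 33.1% of all tested genes and 42.4% of the abundant ones. That gene was Eif2b2, which passed as lower. This beta subunit gene had 49.6 and 50.0 CPM in knockout libraries, against 55.0 and 55.8 CPM in control libraries (-0.16 ± 0.05, adjusted p = 0.0049), and missed the threshold with DESeq2 (-0.16). Eif2b5, the catalytic epsilon subunit and the most counted of the group, had 68.0 and 68.9 CPM in knockout libraries, against 71.3 and 72.1 CPM in control libraries (-0.08 ± 0.04, adjusted p = 0.157). Eif2b1, Eif2b3 and Eif2b4 had log2 fold changes of -0.01, 0.10 and -0.02 with adjusted p of 0.32 or more. Of these, Eif2b1 and Eif2b4 changed sign in other settings.

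The eIF3 genes showed the most calls of any complex. eIF3 is the large platform that binds the small subunit, and in mammals it has an octamer of the a, c, e, f, h, k, l and m subunits with b, d, g, i and j attached. Of 12 tested subunit genes 7 rose and 3 fell (83.3% called), with a median log2 fold change of 0.07. Over all tested genes 33.1% were called, 15.1% as higher and 18.1% as lower, with a median of 0.005. Among the abundant genes 42.4% were called, 18.5% as higher and 23.9% as lower, with a median of -0.009. Within the octamer 6 rose (Eif3c, Eif3e, Eif3h, Eif3k, Eif3l and Eif3m), 1 fell (Eif3a) and Eif3f did not pass. Outside it Eif3i rose, Eif3b and Eif3d fell and Eif3g did not pass.

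Eif3k had the largest rise among the subunits, with 122.0 and 122.8 CPM in knockout libraries against 104 and 103 CPM in control libraries (0.24 ± 0.03, adjusted p = 4.9e-07). Eif3h followed with 299 in each knockout library, against 255 and 260.2 CPM in control libraries (0.21 ± 0.03, adjusted p = 5.1e-08), and Eif3e with 247 and 237 against 215 and 211 CPM (0.18 ± 0.03, adjusted p = 4.0e-06). In each of these 3 both knockout libraries stood above both controls. Eif3m (112.0 and 111.4 CPM in knockout libraries, 102.1 and 100.7 CPM in control libraries, 0.13 ± 0.03) and Eif3i (164 and 157.5 CPM in knockout libraries, 147 in each control library, 0.12 ± 0.03) rose less. Eif3l (0.08 ± 0.03, adjusted p = 0.0408) and Eif3c (0.07 ± 0.03, adjusted p = 0.0379) rose least, and Eif3f gave 0.07 ± 0.03 with adjusted p = 0.0523.

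Eif3a, the scaffold of the complex and its most counted subunit, was lower, with 423 and 425 CPM in knockout libraries against 461 and 454 CPM in control libraries (-0.12 ± 0.02, adjusted p = 0.000155). Eif3b fell by a similar step (207.7 and 207.8 CPM in knockout libraries, 219.5 and 227 CPM in control libraries, -0.11 ± 0.03, adjusted p = 0.0024), and Eif3d, a subunit that can itself bind caps, fell by 0.08 ± 0.03 (153.6 and 153.3 against 159.7 and 162.8 CPM, adjusted p = 0.0440). Eif3g overlapped between the groups at 98.5 and 103.4 against 99.2 and 104.5 CPM. Eif3j1 and Eif3j2, nearly identical copies, were listed at 0 in all 4 libraries. Summed over the octamer, the level was 2048 and 2062 CPM in knockout libraries and 1943 and 1944 CPM in control libraries, 5.74% higher.

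Length and single libraries bear on the smaller eIF3 calls. After correction for GC content and length Eif3k (0.11), Eif3h (0.14) and Eif3e (0.10) still passed, whereas Eif3i (0.04), Eif3m (0.05) and Eif3l (0.07) did not, and Eif3f (0.07, higher) and Eif3g (-0.11, lower) passed. Eif3d missed without control replicate 1 (-0.09), control replicate 2 (-0.07), knockout replicate 1 (-0.08) or knockout replicate 2 (-0.08), and Eif3l missed without control replicate 2 (0.05), knockout replicate 1 (0.07) or knockout replicate 2 (0.09). Eif3c missed without control replicate 1 (0.05) or knockout replicate 2 (0.05), and Eif3i without knockout replicate 1 (0.09). Eif3f passed without control replicate 2 (0.09) or knockout replicate 1 (0.09), under upper quartile (0.09) or total count scaling (0.07) and with limma voom (0.07), and Eif3d missed under both scalings (-0.05 and -0.07). With DESeq2 Eif3c, Eif3d, Eif3l and Eif3m missed the threshold.

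**Figure D4:**
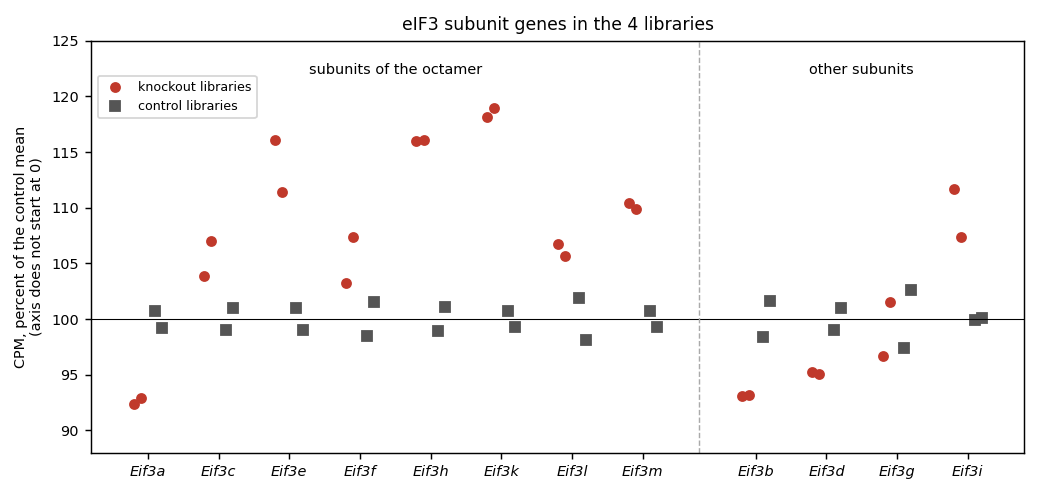
CPM of the 12 tested eIF3 subunit genes in each library as a percent of the control mean (vertical axis, which does not start at 0), with the subunits of the octamer left of the dashed line and the others right of it. Knockout libraries (red, left in each pair) lie above both control libraries (grey) for 7 octamer subunits and Eif3i, and below them for Eif3a, Eif3b and Eif3d. Such separation was common, found in 65.1% of all tested genes and in 5241 of the 7247 abundant genes.

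Of 15 tested eIF4 genes 4 fell and 2 rose (40.0% called), near the 42.4% called among the abundant genes, and the count turned to 1 lower and 2 higher under upper quartile scaling and to 1 of each without knockout replicate 2. Eif4g1, the scaffold that joins the cap-binding protein to the helicase and to eIF3 (chromosome 16, 20668313 to 20692884, plus strand), had 514 and 508 CPM in knockout libraries, against 596 and 593 CPM in control libraries. Both knockout libraries were lower (-0.23 ± 0.02, adjusted p = 2.0e-10). Eif4a1, the main helicase, had 690.0 and 679.5 CPM in knockout libraries and 720.1 and 719.9 CPM in control libraries (-0.08 ± 0.02, adjusted p = 0.0039). Eif4e, the cap-binding protein, had 165 and 151 CPM in knockout libraries and 170.4 and 169 CPM in control libraries (-0.11 ± 0.03, adjusted p = 0.0113). Of these 3 genes of the cap-binding complex, Eif4a1 and Eif4e missed the threshold without knockout replicate 2 (-0.07 and -0.05) and under upper quartile scaling (-0.05 and -0.08), while Eif4g1 passed in both. Eif4b, the helicase cofactor, rose, with 631 and 626 CPM in knockout libraries against 577 and 570.1 CPM in control libraries (0.12 ± 0.02, adjusted p = 2.7e-05).

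Eif4g3, a further scaffold paralog, fell by 0.08 ± 0.03 (252 and 246 CPM in knockout libraries, 260.0 and 263 CPM in control libraries, adjusted p = 0.0260). Eif4g2, whose product DAP5 lacks the eIF4E site and drives cap-independent initiation, was the most counted eIF4 gene and did not pass (1245 and 1215 CPM in knockout libraries, 1282 and 1253 CPM in control libraries, -0.05 ± 0.02, adjusted p = 0.0523), although it passed as lower with limma voom and with the legacy edgeR fit (-0.05 each). Scaled by transcript length, Eif4g1 made up 31.8% ± 0.206 of the 3 scaffolds in knockout libraries and 34.4% ± 0.183 in control libraries (SD, n = 2). The level of Eif4g2 per length depends on which of its transcripts is used. Eif4ebp1, the mTORC1-controlled inhibitor of eIF4E, rose (52.9 and 58.8 CPM in knockout libraries, 48.4 and 48.9 CPM in control libraries, 0.19 ± 0.05, adjusted p = 0.0023), while Eif4ebp2, its main form in brain, did not pass (91.0 and 92.3 against 90.7 and 87.6 CPM), nor did the scarce Eif4ebp3 (6.35 and 6.25 against 5.55 and 5.41 CPM).

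The other eIF4 genes did not pass. They were Eif4a2, a helicase paralog, at 381 and 379 CPM in knockout libraries and 384 and 358 CPM in control libraries, and Eif4a3, the exon junction helicase, at 117.5 and 109 against 123 and 116 CPM. Eif4h, a cofactor of the helicase, had 396 and 385 CPM in knockout libraries and 390 and 402 CPM in control libraries. Eif4e2, a repressive cap-binding paralog, had 81.5 and 80.7 against 86.0 and 85.5 CPM, Eif4e3 had 4.64 and 4.09 against 5.93 and 4.49 CPM, and the eIF4E shuttling protein gene Eif4enif1 had 65.2 and 61.9 against 64.8 and 65.6 CPM. Eif4e1b was listed at 0 in all 4 libraries. Leaving out knockout replicate 2 also ended the calls of Eif4ebp1 (0.11) and Eif4g3 (-0.06), leaving out control replicate 2 ended that of Eif4g3 (-0.07) and brought in Eif4a3 (-0.13), Eif4g2 (-0.07) and Eif4e3 (-0.45), control replicate 1 brought in Eif4a2 (0.08) and knockout replicate 1 Eif4a3 (-0.14). Upper quartile scaling also ended that of Eif4g3 (-0.05), DESeq2 those of Eif4e, Eif4ebp1 and Eif4g3, and correction for GC content and length that of Eif4g3 (-0.03), while it brought in Eif4a3 (-0.12) and Eif4e2 (-0.11).

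Late initiation factors held 1 call, in the 4 eIF5 genes (25.0%, against 33.1% of all tested genes and 42.4% of the abundant ones). Eif5a, the hypusine-carrying factor that helps peptide bond formation at difficult sequences, had 486 and 484 CPM in knockout libraries, against 507 and 514 CPM in control libraries (-0.08 ± 0.02, adjusted p = 0.0061). That call was lost under upper quartile scaling (-0.05) and without knockout replicate 2 (-0.08), and correction for GC content and length gave -0.13. Eif5, the GTPase activator of eIF2, had 340.3 and 331.7 CPM in knockout libraries and 329.9 and 314.4 CPM in control libraries (0.05 ± 0.03, adjusted p = 0.129), and it passed without control replicate 1 (0.09) and under upper quartile scaling (0.08). Eif5b, the subunit-joining GTPase, had 124.9 and 122.7 CPM in knockout libraries and 122.8 and 122.9 CPM in control libraries. Eif5a2, the scarce paralog, had 39.2 and 39.5 against 41.4 and 39.3 CPM. Eif6, which keeps large subunits from joining too early, had 63.5 and 64.2 CPM in knockout libraries and 61.5 and 65.7 CPM in control libraries (0.00 ± 0.04, adjusted p = 0.972).

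Levels per length spanned a wide range within each step of translation. On the scale of CPM per kilobase of the principal transcript, Eef1a1 led with 5430 ± 29.8 in knockout libraries and 4412 ± 86.6 in control libraries (SD, n = 2), followed by Eef2 with 1012 ± 3.19 and 969 ± 5.24. Below them came Eif4a1 with 386 ± 4.20 and 406 ± 0.0493, Eif5a with 338 ± 1.11 and 355 ± 3.48 and Eef1g with 316 ± 2.16 and 310 ± 1.43. In control libraries the 12 detected eIF3 subunits lay between 75.7 (Eif3b) and 199 (Eif3h), and in knockout libraries between 70.5 (Eif3b) and 231 (Eif3h). The eIF2B subunits lay lower, between 13.3 (Eif2b3) and 31.0 (Eif2b2) in knockout libraries and 12.4 and 34.5 in control libraries. The neighbours Eif2b1 (20.3 ± 0.0679 in knockout and 20.3 ± 0.227 in control libraries) and Eif2b4 (20.02 ± 0.387 and 20.2 ± 0.233) did not differ beyond their spread. Paralogs were used unequally: scaled by length Eef1a1 made up 99.5% of its pair in knockout libraries and 99.3% in control libraries, Eif5a 97.7% and 97.8%, and Eif4a1 69.2% ± 0.161 and 70.7% ± 1.02.

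**Figure D5:**
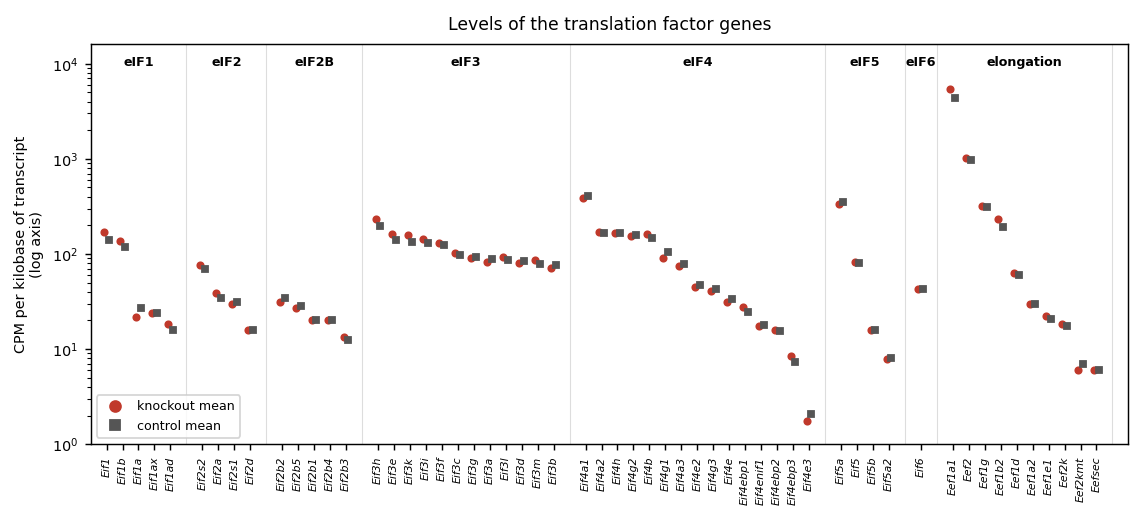
Mean CPM per kilobase of transcript (vertical axis, logarithmic) of the 56 tested genes in knockout libraries (red circles, left) and control libraries (grey squares, right), by complex and in order of control level. Eef1a1 is highest at 5430 in knockout libraries and 4412 in control libraries, and Eif4e3 lowest at 1.74 and 2.07.

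Partners of these factors outside the Eif and Eef symbols moved both ways, with 5 of 26 higher and 5 lower and a median log2 fold change of -0.01. Etf1, the release factor that recognises stop codons, had 174 and 172.5 CPM in knockout libraries, against 191 and 201 CPM in control libraries (-0.19 ± 0.03, adjusted p = 5.3e-06). Bzw2, an eIF5-mimic protein gene, had 174.3 and 174.1 CPM in knockout libraries, against 157 and 150.2 CPM in control libraries (0.17 ± 0.03, adjusted p = 2.9e-05). Pabpc1, the poly(A)-binding protein that meets eIF4G, had 1146 and 1161 CPM in knockout libraries, against 1090 and 1061 CPM in control libraries (0.09 ± 0.02, adjusted p = 0.000413). Paip2b, an inhibitor of that protein, rose by 0.15 ± 0.04 (adjusted p = 0.0011). The count is 38.5% of the list, against 33.1% of all tested genes.

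Genes that regulate eIF2, eIF4E and eEF2 through mTORC1 and the stress kinases were lower in 7 and higher in 1 of 23, or 34.8% called, close to the 33.1% of all tested genes (15.1% higher and 18.1% lower), with a median of -0.07. Rheb, the small GTPase that switches on mTORC1, had 90.9 and 89.3 CPM in knockout libraries, against 119 and 117 CPM in control libraries (-0.40 ± 0.04, adjusted p = 8.9e-12). Eif2ak2, the interferon-induced eIF2 kinase PKR, had 29.7 and 29.1 CPM in knockout libraries, against 41.5 and 40.2 CPM in control libraries (-0.48 ± 0.05, adjusted p = 3.3e-09). These 2 genes also passed the test against a 1.2-fold change. Ddit4, an mTORC1 inhibitor, rose (443 and 452 CPM in knockout libraries, 397 and 415 CPM in control libraries, 0.13 ± 0.03, adjusted p = 6.3e-05), and Ppp1cc, a catalytic subunit of the phosphatase that resets eIF2, fell by 0.12 ± 0.03 on the log2 scale (adjusted p = 0.0018).

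Genes known as targets of ATF4 and CHOP, the transcription factors of the integrated stress response, did not move one way. The list of 17 genes also holds Atf4 and Ddit3 themselves. Of the 17, 5 rose and 3 fell, Atf4 among those that fell, with a median of -0.04. That is 47.1% called, against 33.1% of all tested genes and 42.4% of the abundant ones. The cystine transporter gene Slc7a11 fell by 1.21 ± 0.06 on the log2 scale (22.3 and 20.7 CPM in knockout libraries, 48.3 and 50.6 CPM in control libraries, adjusted p = 1.5e-19), whereas the asparagine synthetase gene Asns rose by 0.46 ± 0.04 (94.6 and 93.9 CPM in knockout libraries, 67.2 and 69.2 CPM in control libraries, adjusted p = 2.1e-12). Vldlr fell by 0.20 ± 0.03 on the log2 scale (adjusted p = 1.3e-06), and Ddit4, which is on both lists, rose as given above. Atf4 itself fell by 0.15 ± 0.03 on the log2 scale (111.2 and 111.5 CPM in knockout libraries, 123.7 and 122.5 CPM in control libraries, adjusted p = 0.000447), while Ddit3, the CHOP gene, did not pass (adjusted p = 0.884). Among 9 genes for the modifications diphthamide on eEF2 and hypusine on eIF5A 22.2% were called, against 33.1% of all tested genes. Dph7 rose (0.25 ± 0.07, adjusted p = 0.0026) and Dph6 fell (-0.25 ± 0.07, adjusted p = 0.0081), and the hypusine genes Dohh (0.12 ± 0.05, adjusted p = 0.097) and Dhps (0.04, adjusted p = 0.69) did not pass. Both Dph calls were lost with DESeq2 and without 1 library: Dph7 without control replicate 2 or knockout replicate 1 (0.19 each), and Dph6 without control replicate 1 (-0.20) or knockout replicate 1 (-0.22). Dohh passed without control replicate 2 (0.18) or knockout replicate 1 (0.17) and under upper quartile scaling (0.14).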

How the data were processed

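The authors deposited 1 table per library of raw read counts per gene symbol, whole numbers without normalization, each ending in 5 summary lines. Those lines held 25.2% to 26.1% of entries and were left out. Per the submitters' processing notes, HISAT2 2.2.1, HTSeq 0.12.4 and DESeq2 1.26.0 were used with the mm10 build. The libraries mark strand by dUTP per the labels' protocols, but neither the strand setting of the counting nor its annotation is stated in the sources used here, so 15 members that overlap another protein-coding gene may share reads with it. CPM are counts over the gene total of a library, and a floor of 3 counts stands for 0.106 to 0.116 CPM, which covers counting error only.

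Genes were filtered with filterByExpr, scaled with TMM (factors 0.9974 to 1.0027) and compared with edgeR 4.0.16 in R 4.3.3 (quasi-likelihood F test, legacy off, no block, Benjamini-Hochberg adjustment over 15012 genes, threshold 0.05). With 2 against 2 libraries no exact permutation p falls under 0.333, so none was used. Libraries of a group differed by a chi-square per gene of 1.96 (control) and 2.20 (knockout), above sampling noise, against 20.4 to 21.2 between groups. Transcript lengths, GC content and positions came from GENCODE M21 (GRCm38, the assembly of mm10), which held 95.7% of symbols and all 59 members, and promoter sequences from RefSeq (GRCm38.p6).

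Named with library values were members past the threshold with an absolute log2 fold change of at least 0.2, the 2 smallest p and the most abundant gene of each complex, and up to 4 genes of each pathway list; other members are named after their values were seen. Members and lists were chosen with earlier results of these data known. The steps were also run on simulated data with planted changes. Recovery was required there only for a change larger than any member showed, so that requirement does not bear on the member calls. Alternatives were DESeq2 1.42.0, limma 3.58.1 (voom), other scalings, filters and thresholds, a test against a 1.2-fold change, a replicate block, omission of each library and, added later, correction for GC content and length.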

Additional observations from a re-analysis of the deposited data

How the results depend on the processing

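Of the 29 called members 13 kept their call and direction in all 15 alternatives other than the test against a 1.2-fold change, 16 lost it in at least 1, and 0 changed sign. Against 1.2-fold, 0 members were called in total and 0 in eIF1, eIF2, eIF2B, eIF3, eIF4, eIF5 and elongation. For all genes called, all genes higher and all genes lower the counts there were 1039, 279 and 760, with 0, 2, 2 and 0 in the lists of partners, kinases and phosphatases, ATF4 targets and modification enzymes. DESeq2 called 16 members (10 higher, 6 lower), of them 1 in eIF2, 0 in eIF2B, 6 in eIF3, 3 in eIF4 and 2 in elongation. It gave 2697 for all genes called, 1055 for all genes higher and 1642 for all genes lower, 5 partners, 4 kinases and phosphatases and 0 modification enzymes. Upper quartile scaling left 5 lower members and 3 eIF4 calls, no low-count filter 7 lower members and 3 elongation calls, and a threshold of 0.01 left 7 lower members, 2 elongation calls, 6 partners and 1490 higher genes. Restricting to a mean log2 CPM of at least 5 left 3071 called genes.

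Leaving out 1 library gave 6 to 11 lower members, with 6 without knockout replicate 2, and 1 to 2 calls in eIF2, 2 to 8 in eIF4, 0 to 2 in eIF5, 2 to 5 in elongation, 6 to 9 partners, 5 to 8 kinases and phosphatases and 1 to 2 modification enzymes. The GC content and length correction turned Prrc2b to 0.023. Genes that did not pass changed sign as follows (log2 fold change). Under upper quartile scaling Eif2d was 0.013, Eif2b1 0.021, Eif2b4 0.01, Eif3g 0.005, Eif6 0.024, Eefsec 0.011 and Ddit3 0.006. Under total count scaling Eif2b1 was 0.002 and Eif6 0.005, and with the GC and length correction Eef1a2 and Dhps were -0.022. With 1 library left out Eif1ax ran from -0.077 to 0.009, Eif2b1 from -0.017 to 0.005, Eif2b4 from -0.037 to 0.002, Eif3g from -0.058 to 0.015, Eif4a2 from -0.024 to 0.079, Eif5b from -0.01 to 0.016, Eif6 from -0.05 to 0.046, Eef1a2 from -0.056 to 0.071, Eefsec from -0.11 to 0.074, Ddit3 from -0.077 to 0.033 and Dhps from -0.026 to 0.1.

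Without division by length the Eif4g1 share differed by -2.31 points (knockout minus control) in place of -2.59, and that of Eif5a by -0.181 in place of -0.0576. Replicate numbers are not stated to pair libraries, and the replicate 1 deviations of the groups correlated at -0.0165 over 15012 genes. A fit with the replicate block called 33 members (19 higher, 14 lower). The cause of these shifts was not tested, and with 2 libraries a group depth limits the scarce Eif4e3 and Eif4ebp3 most.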
